A study of Homo sapiens with 12 samples.

Results

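The 10 genes described here belong to the YAP and TEAD branch of the Hippo pathway. They were taken by symbol from the deposited table of normalised read counts: CYR61 (listed as CCN1 in the annotation), CTGF (CCN2), ANKRD1, AMOTL1, AMOTL2, AJUBA, LATS2, TEAD1, YAP1 and WWTR1. All 10 were found among the 63086 genes of the table, and all 10 were among the 15987 genes tested, those that averaged 10 or more normalised counts per library. YAP1, WWTR1 and TEAD1 are the regulators themselves rather than targets, so the group is called YAP/TEAD pathway genes below.

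The RNA came from MIA PaCa-2, a human pancreatic ductal adenocarcinoma line, which was grown to 70% confluency and sequenced in bulk. The 4 lines had 3 biological replicates each. WT was the unmodified line. CRISPR Control had gone through editing but kept the WT genotype apart from a silent point mutation, and TIMP1 KO 1 and TIMP1 KO 2 had been targeted in exon 4 of TIMP1. TIMP1 encodes a secreted inhibitor of metalloproteinases that also acts as a cytokine. Both KO lines are clones made with different guides, and the control is a single edited line, so that an effect of the genotype cannot be told apart from a difference between lines. The KO lines are called deficient, and WT and CRISPR Control competent.

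YAP and its paralogue TAZ, the product of WWTR1, are coactivators without a DNA-binding domain of their own. When the kinases LATS1 and LATS2 phosphorylate them they are held in the cytoplasm or degraded, and when they escape phosphorylation they enter the nucleus and bind TEAD factors on DNA. Cell density, cell shape and tension in the actin cytoskeleton act on this step, so that much of the pathway's control does not pass through the mRNA of YAP1 or WWTR1. Several targets feed back on the pathway: LATS2, AMOTL2 and AJUBA act on the kinases or on YAP and are also among the genes it switches on. In epithelial tumours the pathway is known for its part in growth, invasion and regeneration.

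TEAD factors bind the motif GGAATG. It was searched on both strands in the RefSeq promoter windows of GRCh38.p14, each running from 250 bases before to 50 bases after a start site. Of the 10 members, 8 matched the table with 11 windows, and CYR61 and TEAD1 had no entry. The motif was present in 6 of the 11 windows, from 6 genes (CTGF, ANKRD1, AMOTL2, AJUBA, LATS2 and YAP1), and in 14.0% of all 35116 windows of the same length. WWTR1 was higher in both KO lines than in both competent lines, and its 2 windows, without the motif, are not shown. The sequences upstream of the start of CTGF, ANKRD1 and AMOTL1 are shown because CTGF and ANKRD1 were also higher there and AMOTL1 was lower. They are read 5′ to 3′ on the strand of the gene, and capitals mark GGAATG or TGANTCA, the motif of the AP-1 factors.
CTGF (chr6:131951373-131951622, minus strand): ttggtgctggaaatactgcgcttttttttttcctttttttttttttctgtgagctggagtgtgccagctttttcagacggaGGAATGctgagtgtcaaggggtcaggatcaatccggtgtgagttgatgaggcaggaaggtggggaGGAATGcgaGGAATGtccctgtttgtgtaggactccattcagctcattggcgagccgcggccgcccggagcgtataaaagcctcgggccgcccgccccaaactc
ANKRD1 (chr10:90921088-90921337, minus strand): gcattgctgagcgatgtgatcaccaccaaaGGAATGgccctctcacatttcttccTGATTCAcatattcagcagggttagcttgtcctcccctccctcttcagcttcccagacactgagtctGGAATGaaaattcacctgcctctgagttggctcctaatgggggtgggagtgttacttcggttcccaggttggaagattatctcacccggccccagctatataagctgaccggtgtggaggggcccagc
AMOTL1 (chr11:94768106-94768355, plus strand): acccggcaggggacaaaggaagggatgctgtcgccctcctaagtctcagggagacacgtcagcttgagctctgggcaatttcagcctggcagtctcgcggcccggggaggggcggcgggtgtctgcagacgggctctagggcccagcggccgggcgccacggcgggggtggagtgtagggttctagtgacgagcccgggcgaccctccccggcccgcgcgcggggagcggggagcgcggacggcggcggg

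The CTGF stretch held 3 matches, which began 169, 104 and 95 bases before the start site, so that the nearer pair lay side by side. ANKRD1 held 2, at 220 and 128 bases before the start, with an AP-1 motif between them at 195 bases. AMOTL1 held none of the motifs searched in this window, which lies inside the gene as GENCODE draws it. The single matches of YAP1 and LATS2 began 162 bases before and 9 bases after their start sites, and those of AMOTL2 and AJUBA, 69 and 59 bases before, lay in the second of their windows. The AP-1 motif was found in 1 of the 11 windows and in 7.71% of all windows, and the CArG box of SRF in none and in 1.29%. These matches are a description of letters in the windows and not of bound sites.

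Library depth ran from 26908701 to 36093563 reads in genes. TIMP1 itself, the targeted gene, was at 3553 ± 274 normalised counts in WT (SD, n = 3, as for all values of this form), 2690.4 ± 357 in the CRISPR Control line, 1599.6 ± 32.8 in KO 1 and 1161 ± 28.8 in KO 2, so its mRNA was lower but present in the KO lines. Epithelial marker RNA, summed over 6 genes, was at 56587 to 72786 normalised counts in CRISPR Control and at 174305 to 223516 in the other lines. The low sum came from the abundant keratins KRT8, KRT18 and KRT19, whereas EPCAM was at 1654 to 2213 in CRISPR Control and 1833 to 1992 in WT, and KRT7 had means of 112 and 91.5. CDH1 (E-cadherin) was at 1151 to 1254 in WT, 1344 to 1487 in CRISPR Control, 102 to 158 in KO 1 and 68.6 to 103 in KO 2. The other epithelial markers did not all follow it. KRT19 had means of 15707 in WT, 24591 in KO 1 and 52497 in KO 2, and KRT7 had 91.5, 121 and 191. EPCAM, KRT8 and KRT18 had means above WT in KO 1 and below it in KO 2. Of the mesenchymal markers, in the same order, VIM had means of 70742, 93176 and 72716, ZEB1 1226, 1288 and 1258, and CDH2 571, 93.7 and 384. In CRISPR Control VIM was at 58625 and ZEB1 at 954, below WT, and CDH2 was at 1110, above WT. The fibroblast, leukocyte and endothelial lists summed to at most 357 in any library. In bulk RNA, fewer cells of a kind and less RNA per cell cannot be told apart. Each difference below is a log2 fold change from limma on log2(normalised count + 1) with its SE, and adjusted p-values are Benjamini-Hochberg values over all genes tested, called at 0.05. The comparisons with WT share the WT libraries, and those with CRISPR Control share its libraries.

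Expressed per kilobase of exon, a scale on which genes can be set side by side, the most abundant members over all libraries were the secreted targets CTGF, at a mean level of 4973, and CYR61, at 3975. The coactivators followed, with YAP1 at 1733 and WWTR1 at 1361, and then ANKRD1 at 754, AJUBA at 576, TEAD1 at 517 and AMOTL2 at 491. LATS2 was at 119 and AMOTL1 at 25.2. This order depends on the lengths used, the union of annotated exons. By normalised counts alone CYR61 was above CTGF in WT (means of 17708 and 9448), CRISPR Control (5929 and 3862) and KO 2 (17723 and 14174). In KO 1 it was below CTGF (17441 and 19022). AMOTL1, CTGF, ANKRD1, CYR61 and AMOTL2 varied most between lines: the highest line mean exceeded the lowest 66.3-fold for AMOTL1, 4.93-fold for CTGF, 4.12-fold for ANKRD1, 2.99-fold for CYR61 and 2.16-fold for AMOTL2. For TEAD1, AJUBA, YAP1, WWTR1 and LATS2 the range was 1.67-fold, 1.58-fold, 1.47-fold, 1.40-fold and 1.40-fold.

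**Figure D1:**
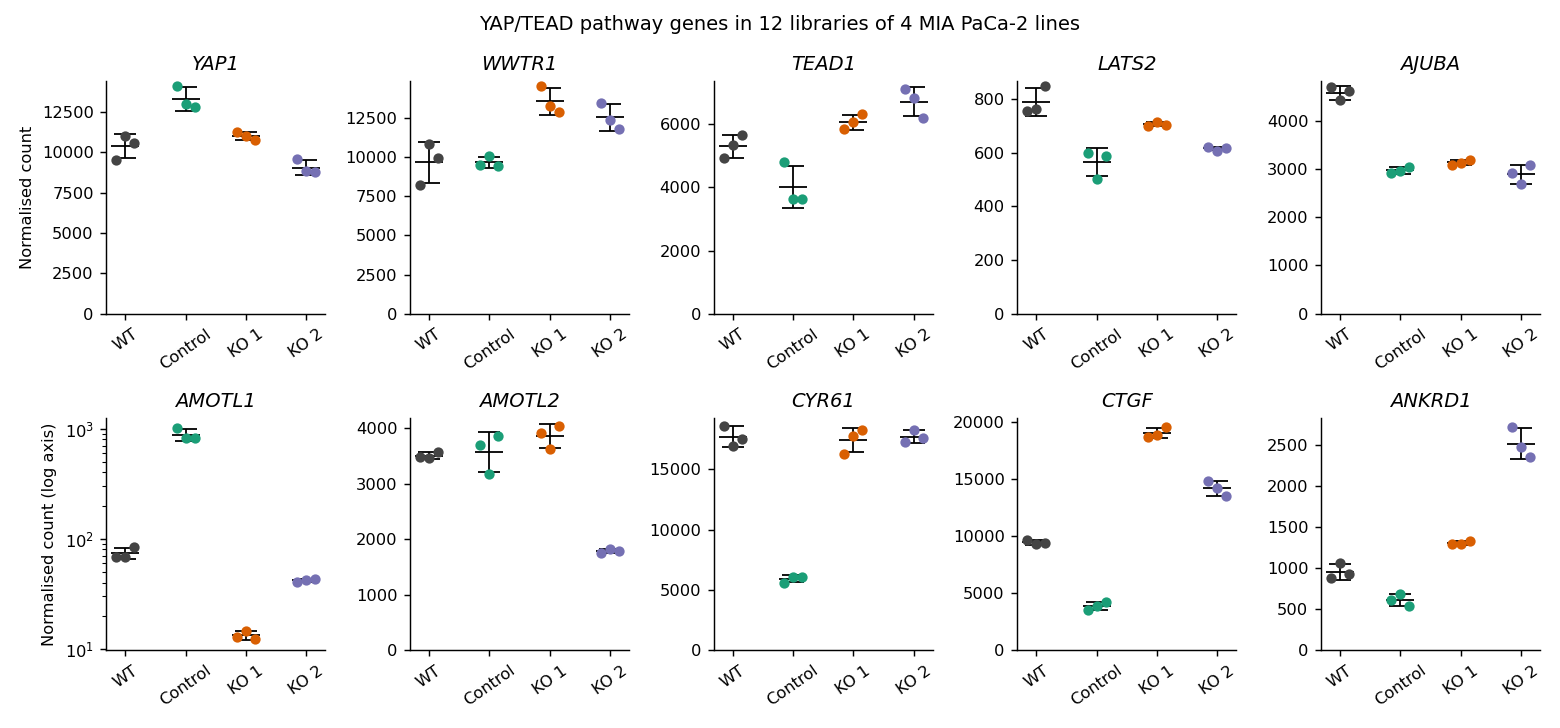
Normalised read counts of the 10 genes in each of the 12 libraries (points), by line, with the mean and SD of each line (bars); AMOTL1 is on a log axis and the other panels start at 0. CTGF was at 3547 to 4187 in CRISPR Control and at 18693 to 19542 in KO 1, AMOTL1 ran the opposite way, and CYR61 was low only in CRISPR Control.

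WWTR1, the gene of TAZ (chr3:149517235-149736714, minus strand), was higher in both KO lines than in both competent lines. Its normalised counts were 8241, 10824 and 9937 in WT, 9482, 10097 and 9432 in CRISPR Control, 14549, 13273 and 12898 in KO 1, and 13471, 12372 and 11798 in KO 2. All 6 deficient libraries were above all 6 competent ones. Relative to WT, WWTR1 rose by 0.50 ± 0.09 (SE; adjusted p = 2.17e-04) in KO 1 and by 0.38 ± 0.09 (adjusted p = 0.00119) in KO 2, and it was at 0.01 ± 0.09 (adjusted p = 0.940, 95% confidence interval -0.18 to 0.19) in CRISPR Control. The 2 KO lines did not differ past the threshold (-0.11, adjusted p = 0.333). The study's way of taking TIMP1-dependent genes asks for a difference from WT in both KO lines and none in CRISPR Control. With the same direction required in both, 1 of the 10 members, WWTR1, met it, beside 10.2% of all genes tested, a share no larger than the background. Its locus overlaps the antisense gene WWTR1-AS1, and the counting is not stated to use strand.

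YAP1 (chr11:102110447-102233424, plus strand) moved differently. It was at 9542, 11019 and 10597 in WT, at 14152, 12980.5 and 12792 in CRISPR Control, at 11262, 11013 and 10756 in KO 1, and at 9588, 8819 and 8759.6 in KO 2. The 3 CRISPR Control libraries were above all others. YAP1 rose in CRISPR Control by 0.36 ± 0.07 (adjusted p = 3.40e-04), was at 0.09 ± 0.07 in KO 1 (adjusted p = 0.374, interval -0.06 to 0.24), and was lower by 0.28 in KO 2 than in KO 1 (adjusted p = 0.00396). In KO 2 against WT the value was -0.20 ± 0.07 (adjusted p = 0.0260) with overlapping libraries. That call was lost without WT replicate 2 (-0.15, adjusted p = 0.120) or 3 (-0.18, 0.0874), without KO 2 replicate 2 (-0.18, 0.0884) or 3 (-0.17, 0.0857), with equal library totals (-0.10, 0.271) and after quantile normalization (-0.07, 0.461), and the difference between the KO lines was lost under both scalings (adjusted p = 0.0698 and 0.0778).

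Per kilobase, YAP1 exceeded WWTR1 by a factor of 1.43 ± 0.09 in WT and 1.82 ± 0.14 in CRISPR Control. In KO 1 the ratio was 1.08 ± 0.04 and in KO 2 it was 0.956 ± 0.023. The ranges of the 4 lines did not overlap, from 1.70 to 1.98 in CRISPR Control down to 0.942 to 0.983 in KO 2, and no test was made of the ratios. In KO 2 WWTR1 thus exceeded YAP1 per kilobase in all 3 libraries. The lengths are the union of annotated exons, 8.353 kb for WWTR1 and 6.311 kb for YAP1. The excess was small and depends on these lengths, so which mRNA was more abundant is not settled.

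TEAD1, one of the TEAD factors to which YAP and TAZ bind (chr11:12674421-12944737, plus strand), was lowest in CRISPR Control. Normalised counts ran from 3626 to 4798 there, from 4922 to 5651 in WT, from 5843 to 6314 in KO 1 and from 6208 to 7109 in KO 2, and the competent and deficient libraries did not overlap. Against WT, TEAD1 fell by 0.41 ± 0.09 in CRISPR Control (adjusted p = 0.00127) and rose by 0.34 ± 0.09 in KO 2 (adjusted p = 0.00530). In KO 1 the difference was 0.20 ± 0.09 (adjusted p = 0.118), which passed when only those 2 lines were fitted (adjusted p = 0.0112) or without CRISPR Control replicate 1 (adjusted p = 0.0291). TEAD2 and TEAD4, which bind the same motif, went the opposite way to TEAD1 in the deficient lines. TEAD2 had means of 1229 in WT, 1195 in the CRISPR Control line, 842 in KO 1 and 587 in KO 2, and TEAD4 had 1801, 1669, 1425 and 1068. Both fell in each KO line against WT, TEAD2 by 0.54 and 1.06 and TEAD4 by 0.34 and 0.75.

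**Figure D2:**
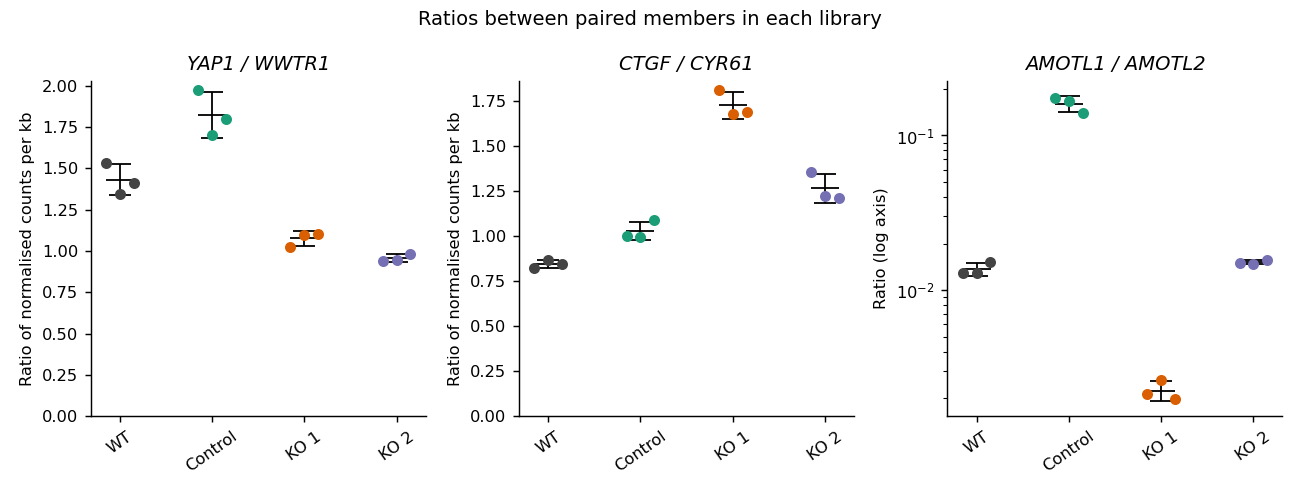
Ratios of normalised counts per kilobase of exon between paired members in each library (points), with mean and SD by line; the right panel has a log axis. YAP1 over WWTR1 fell from 1.82 in CRISPR Control to 0.956 in KO 2, CTGF over CYR61 was highest in KO 1 at 1.73, and AMOTL1 over AMOTL2 was highest in CRISPR Control at 0.160.

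LATS2, the kinase that restrains YAP and TAZ (chr13:20973036-21061586, minus strand), was highest in WT, at 756 to 851 normalised counts. The CRISPR Control libraries were at 504 to 599, those of KO 1 at 700.1 to 714 and those of KO 2 at 608 to 621. LATS2 fell against WT by 0.49 ± 0.09 in CRISPR Control (adjusted p = 1.45e-04) and by 0.36 ± 0.09 in KO 2 (adjusted p = 0.00228), and was at -0.16 in KO 1 (adjusted p = 0.174). Between neighbours in the order WT, KO 1, KO 2 and CRISPR Control no pair differed past the threshold. The step from KO 1 to KO 2 passed when only those lines were fitted (adjusted p = 0.0385), and that from KO 2 to CRISPR Control passed with equal library totals (0.25, adjusted p = 0.0224). LATS2 overlaps its antisense gene LATS2-AS1.

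AJUBA, a LIM-domain protein that holds LATS kinases at cell junctions under tension (chr14:22971177-22982551, minus strand), was lower in every edited line. It was at 4695, 4420.2 and 4612 in WT, at 2907, 2959 and 3036 in CRISPR Control, at 3082, 3121 and 3191 in KO 1, and at 2921, 2679 and 3072 in KO 2. All 9 edited libraries were below all 3 WT libraries. The fall was 0.62 ± 0.07 in CRISPR Control (adjusted p = 2.99e-07), 0.55 ± 0.07 in KO 1 (adjusted p = 3.42e-06) and 0.66 ± 0.07 in KO 2 (adjusted p = 1.18e-07), and the edited lines did not differ among themselves past the threshold, the largest difference being -0.12 between the KO lines (adjusted p = 0.180, interval -0.26 to 0.02). The level of AJUBA thus separated WT from the 3 edited lines and not the KO lines from CRISPR Control.

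The angiomotins bind YAP and hold it at junctions and on actin. AMOTL1 (chr11:94706431-94876748, plus strand) had the widest range of the 10 genes. It was at 69.0, 69.1 and 83.8 normalised counts in WT, at 1005, 816 and 829 in CRISPR Control, at 13.0, 14.6 and 12.4 in KO 1, and at 40.6, 42.1 and 43.4 in KO 2. No 2 lines overlapped, and all libraries were above the floor of 3 reads. AMOTL1 rose by 3.56 ± 0.16 in CRISPR Control (11.8-fold, adjusted p = 1.93e-12) and fell by 2.39 ± 0.16 in KO 1 (5.23-fold, adjusted p = 1.73e-09) and by 0.80 ± 0.16 in KO 2 (1.74-fold, adjusted p = 4.69e-04). It was 61.6-fold lower in KO 1 than in CRISPR Control, and 3.01-fold higher in KO 2 than in KO 1 (adjusted p = 4.13e-07).

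AMOTL2, the second angiomotin-like gene and a common YAP target (chr3:134355347-134375479, minus strand), was low in KO 2 only. It was at 3476, 3464 and 3582 in WT, at 3695, 3178 and 3856 in CRISPR Control, at 3917, 3628 and 4043 in KO 1, and at 1750.3, 1833 and 1782 in KO 2. The KO 2 libraries lay below all 9 others. AMOTL2 fell by 0.97 ± 0.08 in KO 2 against WT (1.96-fold, adjusted p = 3.47e-09) and by 1.11 ± 0.08 in KO 2 against KO 1 (adjusted p = 1.52e-09), while KO 1 stood at 0.14 ± 0.08 (adjusted p = 0.170) and CRISPR Control at 0.02 ± 0.08 (adjusted p = 0.819) against WT. Per kilobase AMOTL2 was the more abundant of the pair in every library. AMOTL1 reached 0.160 ± 0.019 of its level in CRISPR Control, 0.0136 ± 0.0013 in WT, 0.0152 ± 0.0005 in KO 2 and 0.00224 ± 0.00033 in KO 1. The ratio in WT overlapped that in KO 2, although both genes were lower in KO 2. AMOT, the founding gene of the family, had a mean of 65.1 in WT, 359 in the CRISPR Control line, 75.3 in KO 1 and 95.6 in KO 2, and rose by 2.44 ± 0.15 in CRISPR Control against WT (adjusted p = 7.91e-11). The angiomotins AMOT and AMOTL1 were thus both highest in CRISPR Control.

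CYR61 and CTGF encode secreted matricellular proteins of the CCN family that bind integrins, and both are standard readouts of YAP activity. CYR61 (chr1:85580761-85584589, plus strand) was at 18635, 16944 and 17546 in WT, at 16307, 17748 and 18269 in KO 1, and at 17284, 18285 and 17601 in KO 2. Only CRISPR Control stood apart, at 5593, 6117 and 6078. There CYR61 fell by 1.58 ± 0.07 (2.99-fold, adjusted p = 7.68e-13), whereas KO 1 differed from WT by -0.02 (interval -0.17 to 0.12, adjusted p = 0.836) and KO 2 by 0.00 (interval -0.14 to 0.15, adjusted p = 0.983). The KO lines differed from each other by 0.02 (adjusted p = 0.811), which became 0.17 and passed after quantile normalization (adjusted p = 0.0375). Of the epithelial markers KRT8, KRT18 and KRT19 were also lowest in CRISPR Control, while EPCAM, CDH1 and KRT7 were not, and the part of cell state in this difference was not tested.

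CTGF (chr6:131948176-131951372, minus strand) separated all 4 lines. Its counts were 9681, 9295 and 9367 in WT, 3547, 3854 and 4187 in CRISPR Control, 18693, 18831 and 19542 in KO 1, and 14850.1, 14154 and 13519 in KO 2. No 2 lines overlapped, and KO 1 was highest. Against WT, CTGF rose by 1.01 ± 0.07 in KO 1 (2.01-fold, adjusted p = 1.64e-09) and by 0.58 ± 0.07 in KO 2 (1.5-fold, adjusted p = 9.94e-07), and it fell by 1.29 ± 0.07 in CRISPR Control (2.45-fold, adjusted p = 1.74e-11). KO 2 was lower than KO 1 by 0.43 (adjusted p = 8.48e-05). Per kilobase the ratio of CTGF to CYR61 was 0.845 ± 0.023 in WT, 1.03 ± 0.05 in the CRISPR Control line, 1.73 ± 0.07 in KO 1 and 1.27 ± 0.08 in KO 2. The fall in CRISPR Control was shared by the pair, whereas in the KO lines CTGF rose beside a CYR61 for which no difference from WT was found. LINC01013 overlaps CTGF on the opposite strand.

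ANKRD1, an ankyrin-repeat protein first known from heart and a sensitive YAP target (chr10:90912096-90921087, minus strand), had the same order of direction with the KO lines exchanged. It was at 878, 1069 and 925 in WT, at 609, 688 and 540 in CRISPR Control, at 1291, 1296 and 1335 in KO 1, and at 2726, 2475 and 2357 in KO 2. The 4 lines did not overlap. ANKRD1 rose by 0.45 ± 0.10 in KO 1 (1.37-fold, adjusted p = 0.00112) and by 1.40 ± 0.10 in KO 2 (2.63-fold, adjusted p = 6.15e-10) and fell by 0.65 ± 0.10 in CRISPR Control (1.57-fold, adjusted p = 1.68e-05), and KO 2 was above KO 1 by 0.94 (adjusted p = 3.27e-07). No gene of the annotation overlaps CYR61 or ANKRD1. CTGF and ANKRD1, whose upstream stretches held 3 and 2 GGAATG matches, both rose in each KO line and fell in CRISPR Control. Their stretches were shown because of their changes in the KO lines. AMOTL2, AJUBA, LATS2 and YAP1, with a single match each, did not have this pattern. WWTR1 rose in both KO lines without a match, and CYR61 and TEAD1 had no window. A link between the motif and these changes was not tested.

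**Figure D3:**
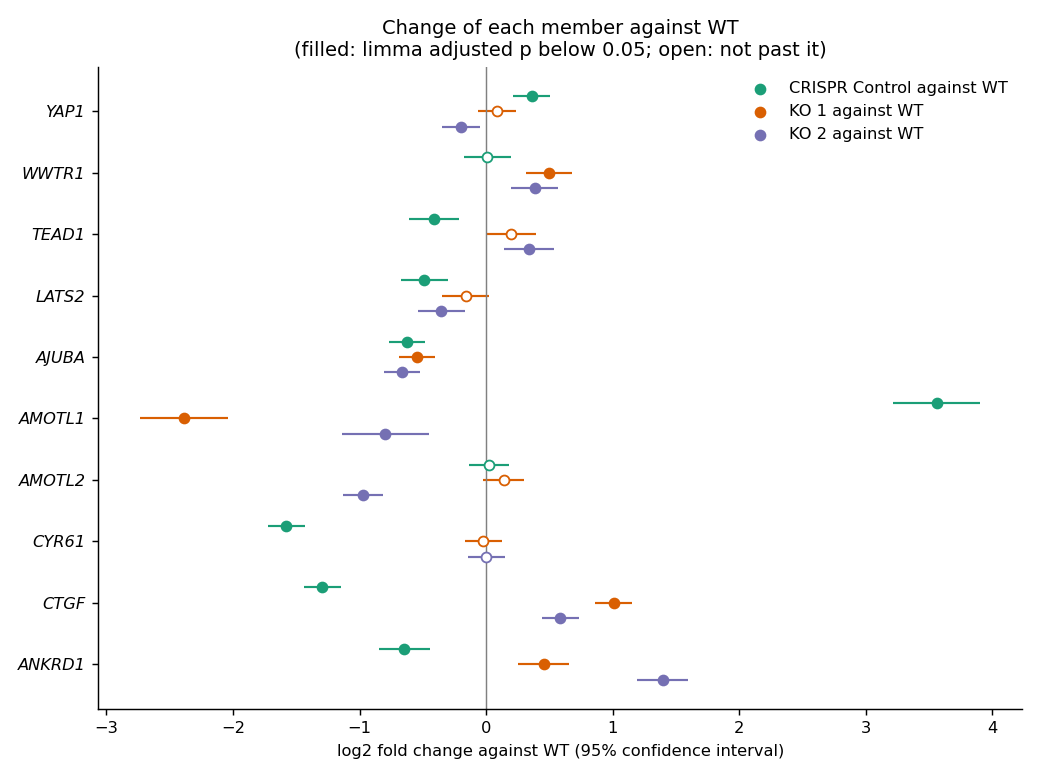
Log2 fold change of each gene against WT with its 95% confidence interval, for CRISPR Control (green), KO 1 (orange) and KO 2 (purple); filled points passed an adjusted p of 0.05 in limma. CTGF and ANKRD1 were above 0 in both KO lines and below 0 in CRISPR Control, AMOTL1 was the reverse, and AJUBA was near -0.6 in all 3 lines.

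Counted over the comparisons, 5 of the 10 members differed between KO 1 and WT (3 higher and 2 lower), where 35.5% of all genes tested did. In KO 2 against WT 9 differed (4 higher and 5 lower) beside 55.0%, and in CRISPR Control against WT 8 differed (2 higher and 6 lower) beside 53.4%. The median change of the members was 0.11, -0.10 and -0.45 in these comparisons, and that of all genes 0.00, -0.01 and 0.01. CRISPR Control was thus the line in which most members were below WT. Against CRISPR Control, 8 members differed in KO 1 (6 higher) beside 63.0% and 8 in KO 2 (5 higher) beside 67.7%, and between the KO lines 5 differed beside 38.2%. With backgrounds of this size the counts alone set the members little apart from other genes.

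Between deficient and competent lines 9 members passed, beside 65.9% of all genes. CTGF (1.44 ± 0.05), ANKRD1 (1.25 ± 0.07), TEAD1 (0.47 ± 0.07) and WWTR1 (0.44 ± 0.06) were higher and AMOTL1 (-3.37 ± 0.12) was lower with no overlap of the libraries. The share of all genes tested without such overlap was not counted, so this does not set the members apart from other genes. CYR61 was also called higher, by 0.78, but its deficient libraries overlapped those of WT, and the value rests on CRISPR Control. AMOTL2 (-0.43), AJUBA (-0.29) and YAP1 (-0.23) were called lower with overlap, and LATS2 was at -0.01 (adjusted p = 0.855).

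Genes near each member on its chromosome were set beside it, since a clone that gains or loses a segment moves neighbours together. Of the 80 tested genes that start within 2 Mb of AJUBA, 55 were lower and 8 higher in CRISPR Control than in WT, with a median of -0.60, close to the -0.62 of AJUBA. In the KO lines the same neighbours had medians of 0.11 and 0.14, whereas AJUBA was at -0.55 and -0.66. For TEAD1, 11 of 19 neighbours were lower and 0 higher in CRISPR Control, with a median of -0.39 beside -0.41 for TEAD1. In KO 1 8 of them were higher and 0 lower, with a median of 0.22 beside 0.20 for TEAD1, in KO 2 7 were higher and 2 lower (0.18 beside 0.34), and between deficient and competent lines 12 were higher and 0 lower. Around CYR61 16 of 29 neighbours were lower and 2 higher there, with a median of -0.34 beside -1.58 for CYR61. AMOTL1 (3.56 beside a median of 0.04 over 26 neighbours) and CTGF (-1.29 beside -0.04 over 14) changed in CRISPR Control without such a shift in the median of the genes around them. Of the CTGF neighbours 5 were higher and 5 lower there. Between deficient and competent lines 9 of them were higher and 3 lower (median 0.37 beside 1.44 for CTGF). In that comparison 22 neighbours of CYR61 were higher and 2 lower (0.69 beside 0.78), and 7 of AMOTL1 were higher and 6 lower (0.02 beside -3.37). Of all genes tested, 53.4% were called in CRISPR Control against WT, 35.5% in KO 1 and 55.0% in KO 2 against WT. Between deficient and competent lines 65.9% were called. The called neighbours of TEAD1, and those of CYR61 in CRISPR Control, made up shares near these, though mostly in a single direction. Between deficient and competent lines the called neighbours of CYR61 and of CTGF made up more than 65.9%. Calls over all genes in CRISPR Control were split, with 4344 higher and 4197 lower. The part of chromosome segments in these differences was not tested.

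**Figure D4:**
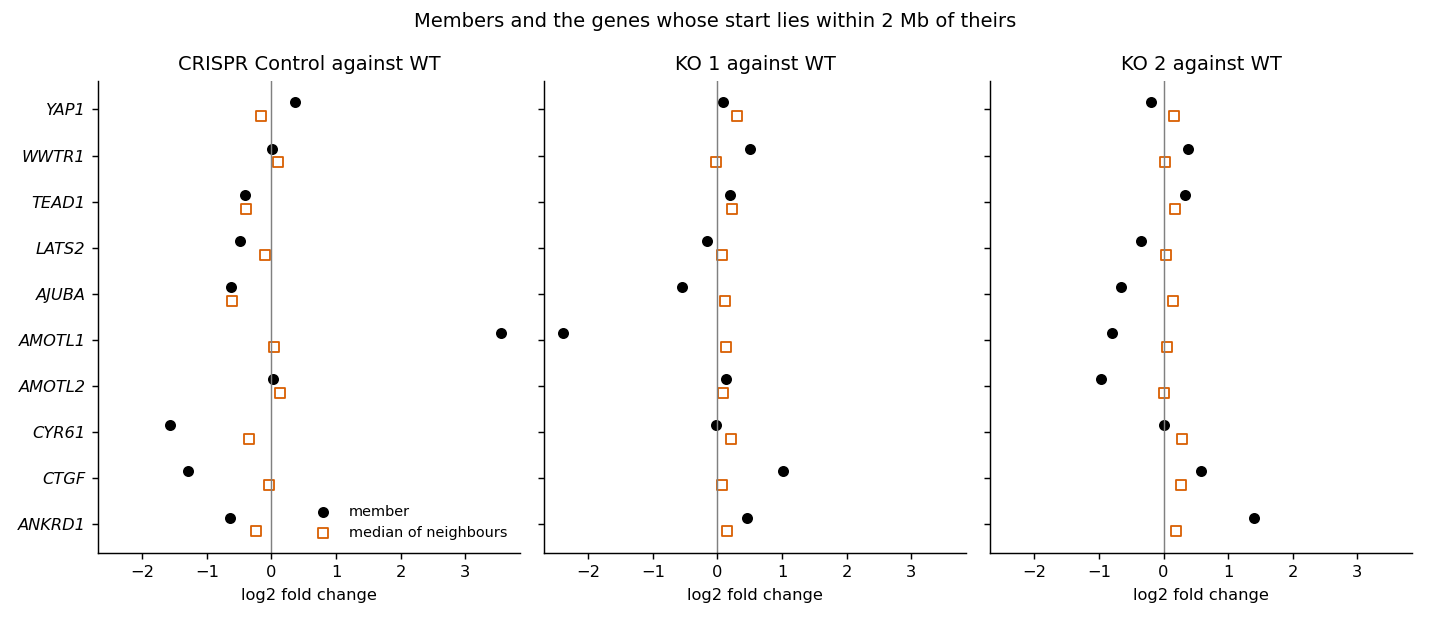
Log2 fold change against WT of each gene (black circles) and the median over the tested genes whose start lies within 2 Mb of it (orange squares), for CRISPR Control, KO 1 and KO 2. In CRISPR Control the squares of AJUBA and TEAD1, at -0.60 and -0.39, lie under the members' own values, while those of AMOTL1 and CTGF stay near 0.

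The remaining genes of the pathway were taken from lists of general knowledge. Of 17 other commonly used YAP and TAZ targets, 9 fell and 4 rose in CRISPR Control against WT (median -0.40), where 53.4% of all genes were called. In KO 1 4 rose and 1 fell (median 0.11) beside 35.5%, and in KO 2 6 rose and 4 fell (median -0.01) beside 55.0%, so that the KO counts were near the background. IGFBP3, which binds insulin-like growth factors, was at 274 ± 26.8 in WT, 37.2 ± 7.2 in the CRISPR Control line, 1668 ± 124 in KO 1 and 1911 ± 248 in KO 2, so that it fell by 2.86 in CRISPR Control and rose by 2.60 and 2.79 in the KO lines against WT. FOXF2, a forkhead factor, was at 1561 ± 121 in WT, 78.0 ± 23.1 in the CRISPR Control line, 1457 ± 69.5 in KO 1 and 1289 ± 78.2 in KO 2, and like CYR61 it fell in CRISPR Control alone, where it fell by 4.34 (adjusted p = 8.90e-15). RBMS3, an RNA-binding protein, was at 85.7 ± 6.9, 10.2 ± 4.4, 108 ± 23.9 and 157 ± 43.0 in the same order. F3 (tissue factor), though a YAP target by the same lists, rose by 4.71 ± 0.33 in CRISPR Control (adjusted p = 8.46e-10). It also rose by 2.01 in KO 2 against WT (adjusted p = 4.69e-05). Its means were 8.7 in WT, 249 in the CRISPR Control line, 8.9 in KO 1 and 38.8 in KO 2. With at most 10 reads in a WT library, these changes start from a low level. The 3 other targets of this list that were higher in CRISPR Control, GADD45A (0.77), FJX1 (0.52) and ASAP1 (0.36), are named after their values were seen. Targets in CRISPR Control thus moved in both directions, with CYR61, CTGF, ANKRD1, IGFBP3, FOXF2 and RBMS3 among the lower ones and AMOTL1, F3, GADD45A, FJX1 and ASAP1 among the higher ones.

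**Figure D5:**
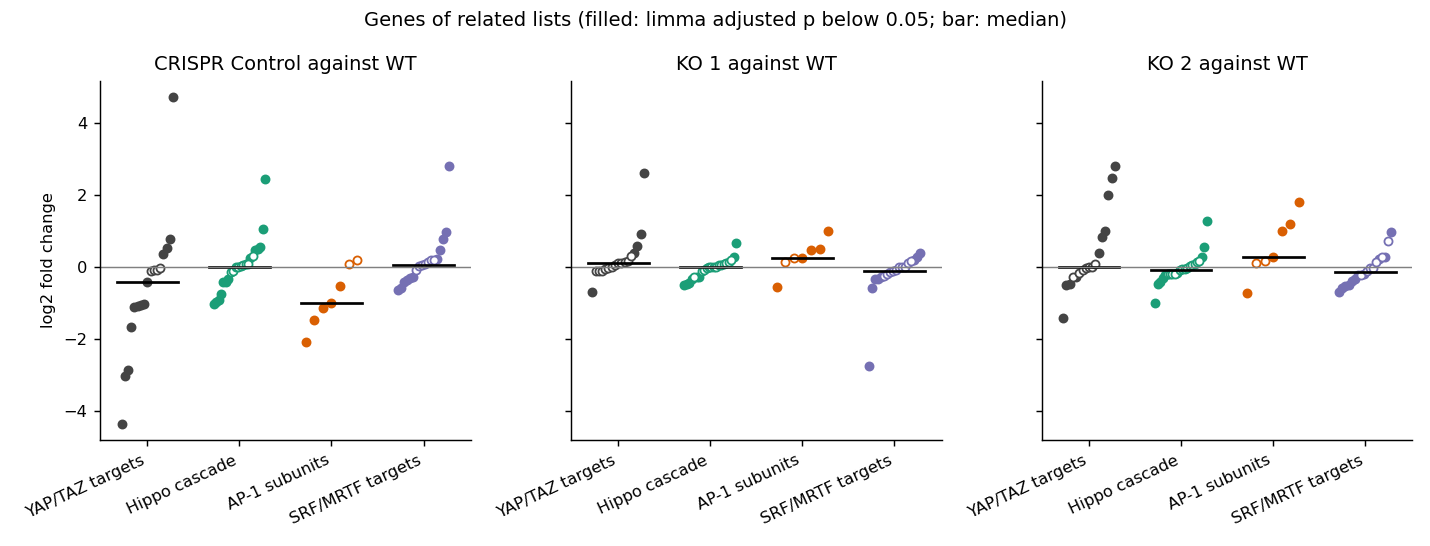
Log2 fold change against WT of the genes in 4 related lists (points; filled where limma's adjusted p was below 0.05), with the list median as a bar, in 3 panels for CRISPR Control, KO 1 and KO 2. In CRISPR Control the other YAP/TAZ targets and the AP-1 subunits had medians of -0.40 and -0.99, and all medians in the KO panels lay within 0.29 of 0.

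AP-1 factors, which often sit beside TEAD on enhancers, were mostly lower in CRISPR Control. Of 7 AP-1 subunits 5 fell and 0 rose there (median -0.99, beside 53.4% of all genes called), and 4 rose and 1 fell in each KO line against WT (medians 0.26 and 0.29, beside 35.5% and 55.0%). Between deficient and competent lines 6 were higher and 1 lower, beside 65.9%, the lower one being FOSL1 (-0.74), named after its value was seen. FOSB was at 98.2 ± 17.6 in WT, 22.5 ± 2.1 in the CRISPR Control line, 196 ± 19.5 in KO 1 and 341 ± 2.3 in KO 2, and it rose by 1.00 (adjusted p = 5.78e-05) and 1.80 (adjusted p = 1.54e-08) in the KO lines. JUNB rose by 0.49 and 0.99, and FOS rose by 1.19 in KO 2 and was at 0.14 in KO 1 (adjusted p = 0.739). FOSB, JUNB and FOS, named for their large change between deficient and competent lines, each had their lowest mean in CRISPR Control and their highest in KO 2, as ANKRD1 did. Other immediate early genes, named after their values were seen, did not all have this order. EGR1 rose by 0.98 in CRISPR Control (adjusted p = 5.94e-06) and by 0.98 in KO 2, and was at -0.26 in KO 1 (adjusted p = 0.146). JUN fell by 1.13 in CRISPR Control, rose by 0.26 in KO 1 and was at 0.12 in KO 2 (adjusted p = 0.163).

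Upstream in the Hippo cascade, 22 kinases and regulators were tested. In CRISPR Control 6 rose and 7 fell, in KO 1 2 rose and 6 fell, and in KO 2 3 rose and 6 fell against WT, with medians of 0.02, 0.00 and -0.07. These counts were near or below the shares of all genes called, 53.4%, 35.5% and 55.0%. FRMD6, a FERM-domain protein upstream of the kinases, had means of 2286 in WT, 1814 in the CRISPR Control line, 3660 in KO 1 and 5579 in KO 2, and it rose by 0.68 and 1.29 in the KO lines. WTIP, an AJUBA-family LIM protein, had means of 3015, 4464, 2160 and 1510 in that order and fell by 0.49 and 1.01. WWC1 (KIBRA), which activates LATS, was at 660 in WT, 1366 in the CRISPR Control line, 476 in KO 1 and 578 in KO 2, so that its call between deficient and competent lines (-0.85) came mostly from CRISPR Control.

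Of the other CCN genes, all 4 were tested, and 1 rose and 1 fell in CRISPR Control, beside 53.4% of all genes called. In KO 1 0 rose and 3 fell, beside 35.5%, and in KO 2 2 rose and 1 fell, beside 55.0%. CCN5, named after its values were seen, fell by 2.19 in KO 1 and by 2.43 in KO 2. It was at -0.10 in CRISPR Control (adjusted p = 0.799), and its mean over all libraries was low, at 45.8. The gene that rose in CRISPR Control, CCN3 (3.95 ± 0.52), is also named after its value was seen, and its mean over all libraries was low, at 19.3. CCN4 was lowest in CRISPR Control, with 369 ± 42.0 in WT, 41.5 ± 7.0 in the CRISPR Control line, 232 ± 21.3 in KO 1 and 505 ± 51.6 in KO 2. It fell by 3.13 ± 0.14 in CRISPR Control (8.74-fold, adjusted p = 1.40e-12) and by 0.66 in KO 1, and rose by 0.45 in KO 2 (adjusted p = 0.0115). Among 18 tested targets and factors of SRF and MRTF, the second transcription system driven by actin, 5 rose and 6 fell in CRISPR Control, 3 rose and 5 fell in KO 1, and 3 rose and 8 fell in KO 2, with medians of 0.07, -0.10 and -0.15, beside 53.4%, 35.5% and 55.0% of all genes called. FHL1, a LIM-only protein, was at 313 in WT, 2197 in the CRISPR Control line, 46.0 in KO 1 and 249 in KO 2, the order of the lines seen for AMOTL1, and FHL2 had means of 9311, 6189, 11230 and 10831, and fell by 0.59 in CRISPR Control. TAGLN (transgelin) was at 61.1, 105, 40.8 and 73.7 in the same order of lines. TEAD cofactors of the VGLL family are counted with the TEAD factors. Of 5 tested genes besides TEAD1, 1 rose and 0 fell in CRISPR Control, beside 53.4% of all genes called. In KO 1 1 rose and 3 fell, beside 35.5%, and in KO 2 0 rose and 2 fell, beside 55.0%.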

How the data were processed

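Poly-A selection, strand setting of the counting and annotation release are not given in the sources used here; per the submitters' notes and the study's methods, the authors trimmed reads with Cutadapt, mapped them to GRCh38 with STAR, counted reads per gene and divided each library's counts by a DESeq2 size factor, checking quality with FastQC and MultiQC. The deposited values are therefore a signal, namely scaled read counts, with replicates not pooled. The scaling sets the typical gene equal between libraries, so a shift shared by most genes would be removed.

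Each library's values were whole multiples of 1 step, which returned whole reads (within 0.01 reads) and the depth of 26908701 to 36093563 reads. A blank line (1) and 4 columns of line means were not used. limma 3.58.1 in R 4.3.3 was fitted to log2(normalised count + 1) of 15987 genes (mean at least 10), with 4 line means from 12 libraries, eBayes with trend and Benjamini-Hochberg adjustment over all genes; it was tested on simulated data. Fold changes on this scale understate low genes. DESeq2 1.42.0 and edgeR 4.0.16 on recovered reads, other pseudocounts, minimums and scalings, single-library omissions and a replicate block were alternatives. The labels call the samples biological replicates and give no batch; p-values measure the spread between these samples. Groups came from the sample titles.

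Same-numbered samples were not treated as paired. The genes and lists were chosen with earlier results of these data known. Besides the 10 members, the text names, from each list, up to 3 called genes (mean at least 50) with the largest change between deficient and competent lines and the 1 with the largest called change in CRISPR Control, and, for CYR61 and CTGF, the 3 genes with the most similar values, of which 1 for CTGF is not reported here. Other genes named only as a description (TIMP1, epithelial and mesenchymal markers, overlapping genes, and those said to be named after their values were seen) fall outside that rule. Coordinates are of GRCh38 from GENCODE, promoters from RefSeq; lengths are the union of exons. Proteins were not analysed here. Intervals are 95% confidence intervals, and the floor of 3 reads covers counting error only.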

Additional observations from a re-analysis of the deposited data

Results flagged for a closer look

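The change against WT differed between the KO lines, by the limma comparison of KO 2 with KO 1, for 5 members. KO 2 minus KO 1 was -0.43 for CTGF (adjusted p = 8.48e-05), 0.94 for ANKRD1 (3.27e-07), 1.59 for AMOTL1 (4.13e-07), -1.11 for AMOTL2 (1.52e-09) and -0.28 for YAP1 (0.00396). CTGF and ANKRD1 moved in the same direction from WT in both KO lines with the larger change in a different line for each, AMOTL1 fell in both with the larger fall in KO 1, and AMOTL2 fell in KO 2 alone. The YAP1 difference was lost with equal library totals and after quantile normalization, as given above. Each KO line is 1 clone, so the guide and the clone cannot be told apart.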

How the results depend on the processing

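Over the alternatives run, 1600 values of the members' changes were recomputed. Of these, 1585 kept their direction and side of the threshold, 9 lost and 6 gained a call, and 0 reversed. The calls lost were those of YAP1 in KO 2 against WT (also with no minimum, adjusted p = 0.0643) and between the KO lines, and those gained concerned TEAD1, LATS2 and CYR61, as given with each gene; in addition TEAD1 rose to 0.26 (adjusted p = 0.0489) between the KO lines after quantile normalization. The smallest change of TEAD1 in CRISPR Control was -0.34 and the largest -0.55, without CRISPR Control replicate 1. Equal library totals moved the share of higher genes among all called from 49.3% to 59.9% in KO 2 against WT and from 47.4% to 65.5% between the KO lines, and moved the median of all genes to 0.11 in KO 2 against CRISPR Control; the cause was not tested. Same-numbered libraries did not deviate together (18 pairs, r from -0.13 to 0.16, 2 over 0.1; 4 of 12 libraries correlated best with their own number), and a replicate block left 5, 9 and 8 members past the threshold in KO 1, KO 2 and CRISPR Control against WT and changed no member's call. With 1 line or clone per edited genotype and guide, differences between clones of 1 kind cannot be estimated.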

Other observations

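Among 11641 tested genes with a mean of at least 100, those most like CYR61 over the 12 libraries, by the root mean square difference of centred log2 values, were RIN2 (0.0709), AFAP1L2 (0.0874) and DDAH1 (0.10). RIN2, an activator of RAB5 on chromosome 20, had means of 1626 ± 93.7 in WT, 556 ± 20.5 in the CRISPR Control line, 1592 ± 69.5 in KO 1 and 1559 ± 63.6 in KO 2. AFAP1L2, an actin-associated adaptor on chromosome 10, had 7340 ± 170 in WT, 2619 ± 63.1 in the CRISPR Control line, 7516 ± 119 in KO 1 and 7023 ± 167 in KO 2. DDAH1, which degrades methylated arginines, starts 2.4 kb from the start of CYR61 on the opposite strand, so that the genes lie head to head, and it had 6644 ± 251, 2077 ± 35.9, 6276 ± 178 and 6178 ± 519 in the same order. All 3 were low in CRISPR Control alone, as CYR61 was.

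Among the genes most like CTGF were UBASH3B (0.106) and SIAE (0.116), both on chromosome 11. UBASH3B, a tyrosine phosphatase, had means of 6671 ± 50.7 in WT, 2538 ± 144 in the CRISPR Control line, 11630.2 ± 13.5 in KO 1 and 8885 ± 429 in KO 2. SIAE, a sialic acid acetylesterase, had 1443 ± 52.9, 642 ± 18.2, 2593 ± 107 and 2065 ± 43.8 in that order. Like CTGF, both were lowest in CRISPR Control and highest in KO 1.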
